A study of Homo sapiens with 2 samples.

Results

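The kinesin motor family was described in MRC-5 cells, a widely used fibroblast line from human fetal lung, after transfection with control siRNA or with siRNA against periostin (POSTN). Members were the genes whose symbol is KIF and a number, with or without a letter from A to C, or KIFC1 to KIFC3. Spots were named through the RefSeq accession that the scanner files give for each probe. RefSeq held 42 such symbols, and 41 of them had at least 1 spot, out of 21743 genes named in the same way. No spot was named for KIF4B, an intronless copy of KIF4A whose sequence is so similar that any contribution of it to the KIF4A signal cannot be told apart. Total RNA of each condition was labelled with Cy3 and hybridised to 1 Agilent SurePrint expression array. The periostin siRNA was used at 10 nM for 48 h, and the labels state no dose or time for the control siRNA. The slide and the scan were the same for both arrays. Since neither condition was repeated, no statistical test could be made, and every ratio below compares these 2 RNA samples. An error given as ± is the spread over 10 replicate spots or, for a probe with 1 spot, the scanner software's own error of that spot, and neither covers the spread between cultures.

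Kinesins are ATP-driven motors that move along microtubules or shorten them. Mitotic kinesins push spindle poles apart, move chromosomes, trim microtubule ends and build the central spindle that guides cytokinesis, and their transcripts are known to accumulate towards mitosis in dividing cells. Transport kinesins carry organelles, vesicles and protein complexes in dividing and resting cells alike, with light chains and adaptors that link the motor to its cargo. Fibroblasts in culture use both kinds. Promoters of many mitotic genes hold short elements that tie transcription to the cell cycle.

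The question of the study was which genes of lung fibroblasts depend on periostin. The targeted gene was examined first. POSTN, the secreted matrix protein periostin, had a scaled signal of 2638 after control siRNA and of 279.7 after periostin siRNA, a log2 ratio of -3.24 ± 0.20, or 9.43-fold lower. Signals are the scanner's background-subtracted intensities after both arrays were brought to the same 75th percentile, and a log2 ratio is periostin siRNA over control siRNA on that scale. The 2 arrays had 58.0% and 58.9% of their 58717 spots well above background, and no spot was saturated. All 13 fibroblast markers examined were well above background on both arrays, with a median log2 ratio of -0.09. Of the markers of other cell types, 4 of 5 epithelial, 3 of 4 endothelial, 3 of 5 leukocyte and 4 of 5 neuronal genes were above background on at least 1 array. CDH1, PECAM1, MS4A1, LAPTM5 and SYP were at background on both arrays, and PTPRC was dim at 17.6 and 25.1. The endothelial markers VWF (72.1 and 79.8) and CDH5 (49.5 and 46.5) were well above background on both arrays. All 4 measured epithelial markers were higher after periostin siRNA, with a median log2 ratio of 0.90, from EPCAM at 34.6 and 135 and KRT19 at 167 and 342 to KRT8 at 751 and 1281 and KRT18 at 3048 and 4265. CD68, a lysosomal marker of macrophages, had 1528 and 2451. The neuronal markers TUBB3 (21126 and 13157), RBFOX3 (579 and 736) and SNAP25 (403 and 356) were also well above background. The part of those markers in the kinesin values was not tested.

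Periostin siRNA was accompanied by lower signals of most kinesins that act in mitosis. Transport kinesins lay on both sides of equal signal, and by their brightest probes only KIF5B differed by more than 2-fold. Of the 41 kinesins, 27 were well above background on both arrays and 5 on the control siRNA array alone, so 32 had a ratio or a bound on it, and 9 were at background on both. Of those 32 kinesins, 20 had a ratio below 1 (45.5% of the 16052 genes with a ratio) and 12 a ratio above 1 (54.5%). In all, 9 kinesins were lower by more than 3-fold, against 2.75% of the same genes, and 2 were higher by that much, against 3.37%. All 9 that were lower were mitotic kinesins, and both that were higher were in neither the mitotic nor the transport list. At 2-fold, 13 kinesins were lower (6.42% of all genes) and 2 were higher (7.97% of all genes). The median log2 ratio was -2.40 over the 12 mitotic kinesins with a ratio, 0.06 over the 13 transport kinesins, -0.20 over the other 7, and 0.06 over all genes. The kinesin medians hold 5 genes at their bound (3 mitotic and 2 other), and without those genes the mitotic median was -2.27. The role lists are textbook lists that were drawn up with earlier results of these arrays known, so the counts describe the lists and are not independent evidence of their direction.

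**Figure D1:**
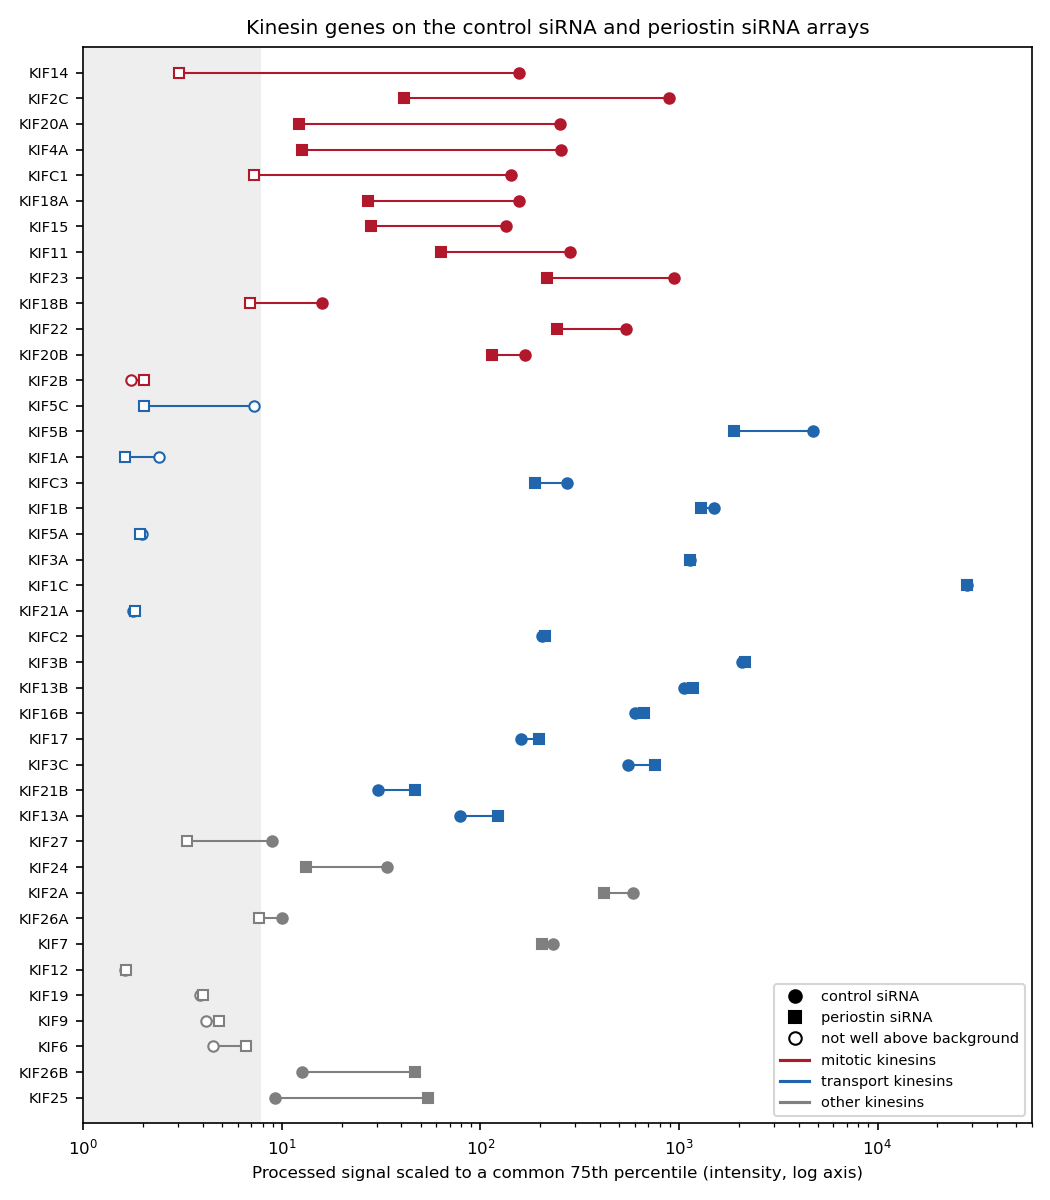
Scaled signal of the 41 kinesins (intensity, log axis) after control siRNA (circles) and after periostin siRNA (squares), 1 row per gene, grouped by role and ordered within a group by the measured ratio. Open symbols were not well above background and the grey band ends at 7.77, the lowest signal flagged above background on the periostin siRNA array. Long red lines, from 887 to 41.3 for KIF2C, contrast with overlapping blue symbols such as KIF1C at 28204 and 28255.

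**Figure D2:**
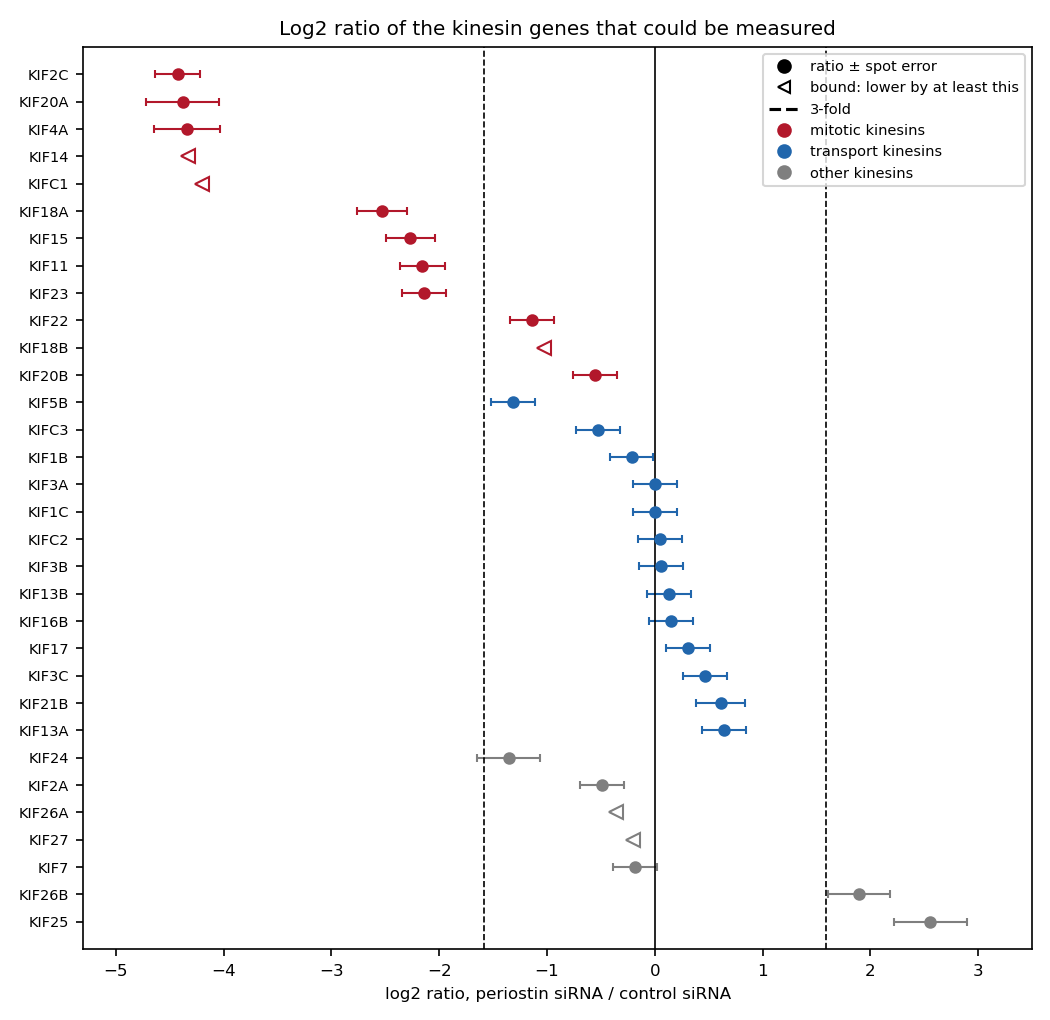
Log2 ratio of periostin siRNA over control siRNA for the 32 kinesins with a ratio, with the spot error as a bar and dashed lines at 3-fold. Triangles are bounds for the 5 genes at background on the periostin siRNA array. The 12 mitotic kinesins lie between -4.43 and -0.55, the 13 transport kinesins between -1.32 and 0.64.

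Because the mitotic members were lower together, the letters of their promoters were read from RefSeq (GRCh38.p14), which held windows of 250 bases before to 50 bases after a transcription start for 34 of the 42 kinesin symbols, 43 windows in all. The 160 bases before the start are printed for 5 mitotic kinesins of the groups described below, and for KIF5B and KIF3B as transport kinesins with a lower and an equal signal. Capitals mark matches to the letters searched, on either strand. TTTGAA, which reads TTCAAA on the opposite strand, is the canonical form of the cell cycle genes homology region or CHR, and TTTAAA is a variant of it. CCAAT, which reads ATTGG on the opposite strand, is the box bound by NF-Y. The letters of E2F type were TTCCCGC, or GCGGGAA when reversed and complemented, and TTGGCGC, or GCGCCAA in the same way. The windows are KIF20A at chr5:138178952-138179111 (+), KIF4A at chrX:70289944-70290103 (+), KIF23 at chr15:69414189-69414348 (+), KIF11 at chr10:92592970-92593129 (+), KIF18A at chr11:28108157-28108316 (-), KIF5B at chr10:32056426-32056585 (-) and KIF3B at chr20:32277491-32277650 (+), each written 5′ to 3′ on the gene's strand.
KIF20A: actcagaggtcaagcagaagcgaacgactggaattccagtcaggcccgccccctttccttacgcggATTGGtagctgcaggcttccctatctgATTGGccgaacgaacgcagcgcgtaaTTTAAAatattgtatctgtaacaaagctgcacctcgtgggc
KIF4A: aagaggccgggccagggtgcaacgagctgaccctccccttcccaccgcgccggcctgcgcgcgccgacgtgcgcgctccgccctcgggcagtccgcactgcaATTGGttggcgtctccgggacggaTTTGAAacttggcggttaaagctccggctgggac
KIF23: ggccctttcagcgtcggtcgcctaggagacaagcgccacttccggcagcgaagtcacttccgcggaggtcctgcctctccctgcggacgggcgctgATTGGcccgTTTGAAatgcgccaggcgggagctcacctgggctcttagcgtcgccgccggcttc
KIF11: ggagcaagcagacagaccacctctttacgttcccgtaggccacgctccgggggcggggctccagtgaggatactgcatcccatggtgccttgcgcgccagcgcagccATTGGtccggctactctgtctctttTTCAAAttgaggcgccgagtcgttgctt
KIF18A: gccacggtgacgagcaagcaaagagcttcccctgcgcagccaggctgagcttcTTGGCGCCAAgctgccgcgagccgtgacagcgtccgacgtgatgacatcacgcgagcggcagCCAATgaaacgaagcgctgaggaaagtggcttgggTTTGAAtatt
KIF5B: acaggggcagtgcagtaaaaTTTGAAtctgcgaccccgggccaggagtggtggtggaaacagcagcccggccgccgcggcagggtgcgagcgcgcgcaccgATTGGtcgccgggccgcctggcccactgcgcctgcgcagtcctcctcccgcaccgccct
KIF3B: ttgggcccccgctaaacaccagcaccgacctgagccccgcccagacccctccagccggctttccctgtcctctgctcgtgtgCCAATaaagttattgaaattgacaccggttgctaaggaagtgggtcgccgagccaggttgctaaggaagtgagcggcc
The printed stretches were picked and do not stand for the whole mitotic list. In them the 4 mitotic promoters other than KIF20A each hold a CHR match within 55 bases of the start, and KIF20A holds TTTAAA at position -41. Among mitotic kinesins not printed, TTTGAA lay after the start in KIF14 (2), KIF18B (3), KIF4B (4), KIFC1 (5) and KIF20B (25 and 31). KIF5B holds its TTTGAA much farther out, at -140, and KIF3B holds neither form.

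The TTTGAA letters were found in 10 of 15 windows of mitotic kinesins (66.7%), KIF4B among them, in 1 of 17 windows of transport kinesins (5.88%), in 0 of 11 windows of the others, and in 15.2% of all 35116 RefSeq windows. Among mitotic kinesins the first base of the match lay between -55 in KIF23 and 31 in KIF20B, counted from the start. CCAAT was held by 11 of the 15 mitotic windows (73.3%), by 5 of the 17 transport windows (29.4%), and by 34.6% of all windows. TTTAAA, which reads the same on both strands, was in 4 mitotic windows, 1 transport window and 12.2% of all windows. Of the E2F-type letters, TTCCCGC was in 0 mitotic windows against 6.55% of all, and TTGGCGC was in 3 mitotic windows (KIF15, KIF18A and KIF18B) against 3.04% of all. Of the 9 windows of kinesins lower by more than 3-fold, 7 held TTTGAA (77.8%). The other 2 were those of KIF20A and KIF2C, which held TTTAAA at -41 and -3. Of the mitotic windows, both of KIF22 and that of KIF2B held neither CHR form. A match of letters is not a binding site, and words this short are frequent, as their share of all windows shows.

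**Figure D3:**
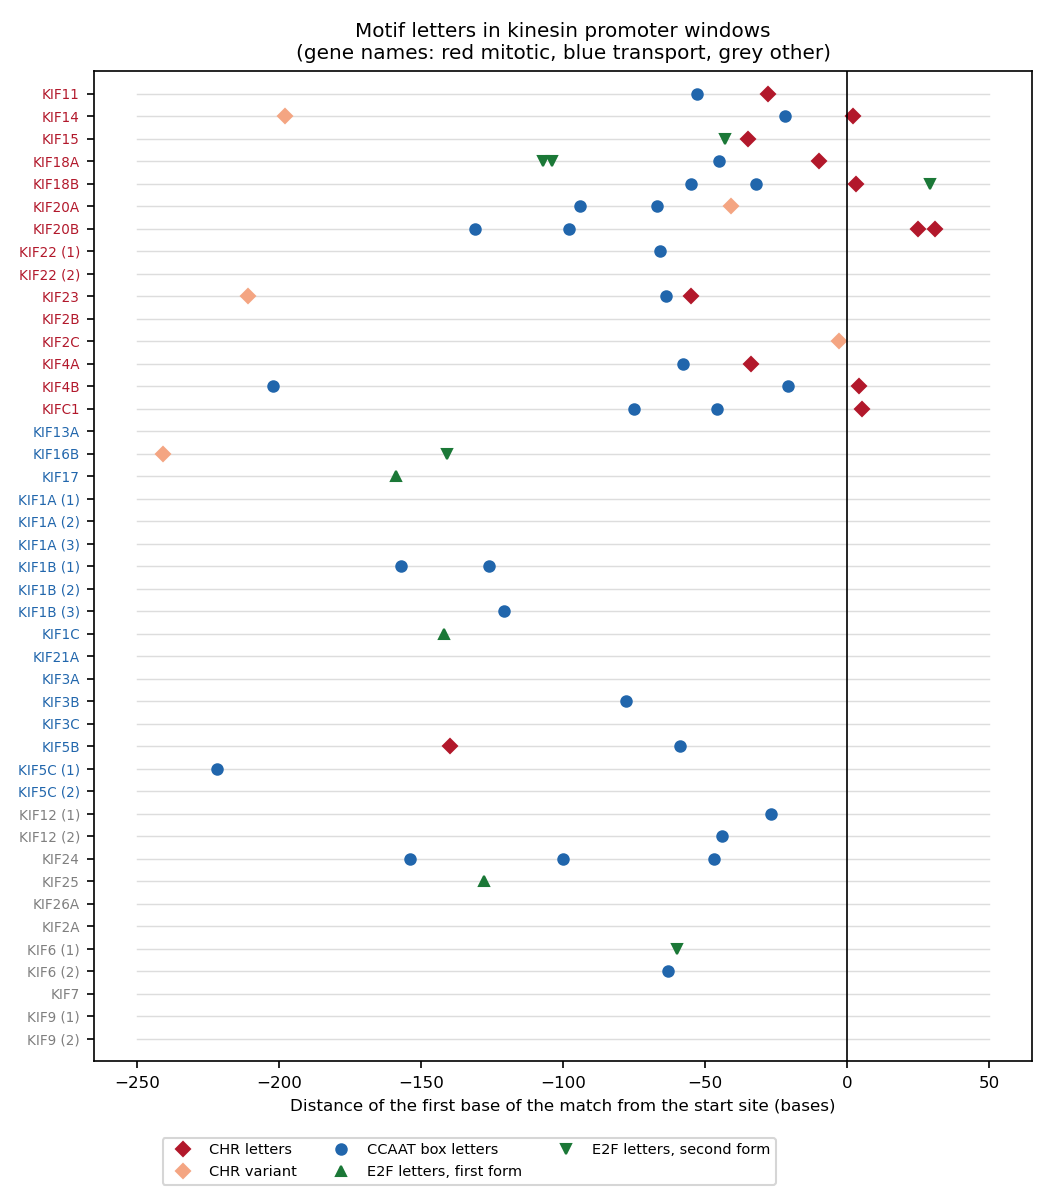
Position of each motif match in the 43 kinesin promoter windows, as the distance in bases of its first base from the transcription start (vertical line), 1 row per window, with numbers in brackets where a gene has several. Red diamonds, the CHR letters, lie near the start in 10 of 15 mitotic windows and at -140 in KIF5B.

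Motors of spindle assembly and of the spindle poles were lower in all 3 cases. KIF11, the motor (also called Eg5) that slides antiparallel microtubules apart so that poles separate, had a signal of 283 with control siRNA and 63.5 with periostin siRNA. Its log2 ratio was -2.16 ± 0.21, which is 4.46-fold lower. KIF15, which shares the work of pole separation with KIF11, had signals of 135 and 28.0, a log2 ratio of -2.27 ± 0.23. KIF11 and KIF15 thus lay within their spot errors of each other. KIFC1, a minus-end directed motor that focuses spindle poles, had 143 with control siRNA and 7.23, not well above background, with periostin siRNA. It was therefore at least 18.4-fold lower.

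Chromosome-arm motors, the chromokinesins, were both lower, by unequal amounts. KIF4A, which binds chromatin and limits microtubule growth on the central spindle, had signals of 254 and 12.6, a log2 ratio of -4.34 ± 0.30. Its second, dimmer probe read 54.1 with control siRNA and was at background with periostin siRNA, at 1.89. KIF22, which pushes chromosome arms away from the poles, had 538 and 244. Its log2 ratio of -1.14 ± 0.20 and that of a second probe, -1.15, differed by less than the spot error.

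Motors that act on microtubule ends and at kinetochores ranged from a more than 20-fold difference to signals at background. KIF2C, a depolymerase at centromeres (MCAK) that corrects faulty attachments, had a signal of 887 with control siRNA and 41.3 with periostin siRNA. Its log2 ratio of -4.43 ± 0.21 is 21.5-fold lower, and 11 of the 16052 genes had a lower ratio. KIF18A, which dampens chromosome movements at the metaphase plate, had 157 and 27.1, a log2 ratio of -2.53 ± 0.23. KIF18B, which controls the length of astral microtubules, was dim with control siRNA at 15.9 and not well above background with periostin siRNA at 6.91. The bound for KIF18B was at least 2.04-fold lower, short of 3-fold, and its second probe was at background on both arrays. In log2 the KIF18B bound was -0.09 with normexp and -0.38 with its probes averaged, so its ratio may be lower than either. KIF2B, a relative of KIF2C, was at background on both arrays in all 10 of its spots, with means of 1.74 and 2.03.

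Motors of the central spindle and of cytokinesis differed most among themselves. KIF20A, which brings the chromosomal passenger complex to the central spindle, is the only mitotic kinesin above background with replicate spots, 10 on each array. Its spots read 234 to 277 with control siRNA and 8.20 to 17.4 with periostin siRNA, all from 1 RNA sample per array. The mean signals were 253 and 12.2, and the log2 ratio was -4.38 ± 0.34 (SD over 10 spots), with the lowest single spot at -4.94. On the periostin siRNA array 7 of the 10 spots were well above background. KIF14, which localises citron kinase to the midbody, had 157 with control siRNA and 3.04, at background, with periostin siRNA, at least 20.2-fold lower. KIF23, the motor subunit of centralspindlin, had 947 and 215. The KIF23 log2 ratio was -2.14 ± 0.20, and its dimmer probe gave -2.60 from 193 and 31.8. KIF20B, which acts late in abscission, had 167 and 114, a log2 ratio of -0.55 ± 0.21. That was the smallest difference among the mitotic kinesins, 1.47-fold, and a second KIF20B probe gave -0.96 from 60.1 and 30.9.

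By size, a first set of mitotic kinesins, KIF2C, KIF20A, KIF4A, KIF14 and KIFC1, was more than 18-fold lower. KIF18A, KIF15, KIF11 and KIF23 were between 4.40-fold and 5.79-fold lower, and KIF22 and KIF20B were nearer to 1. KIF18B, bounded at 2.04-fold lower or more, could not be placed by size. The measured ratios of KIF2C, KIF20A and KIF4A lay within 1 spot error of each other, and so did neighbours from KIF15 to KIF23. The 5 genes of the first set had signals between 3.04 and 41.3 with periostin siRNA. With background estimated by normexp, a model that adds an offset and shrinks dim ratios, these 5 genes were still past 3-fold. Their log2 values lay between -3.23 for KIF2C and -1.60 for KIFC1, the latter barely past that threshold. The values of KIF14 and KIFC1 are bounds with normexp too. Under that setting KIF11 (-1.44), KIF15 (-1.13) and KIF18A (-1.34) were not past 3-fold, and 6 kinesins were lower in place of 9.

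**Figure D4:**
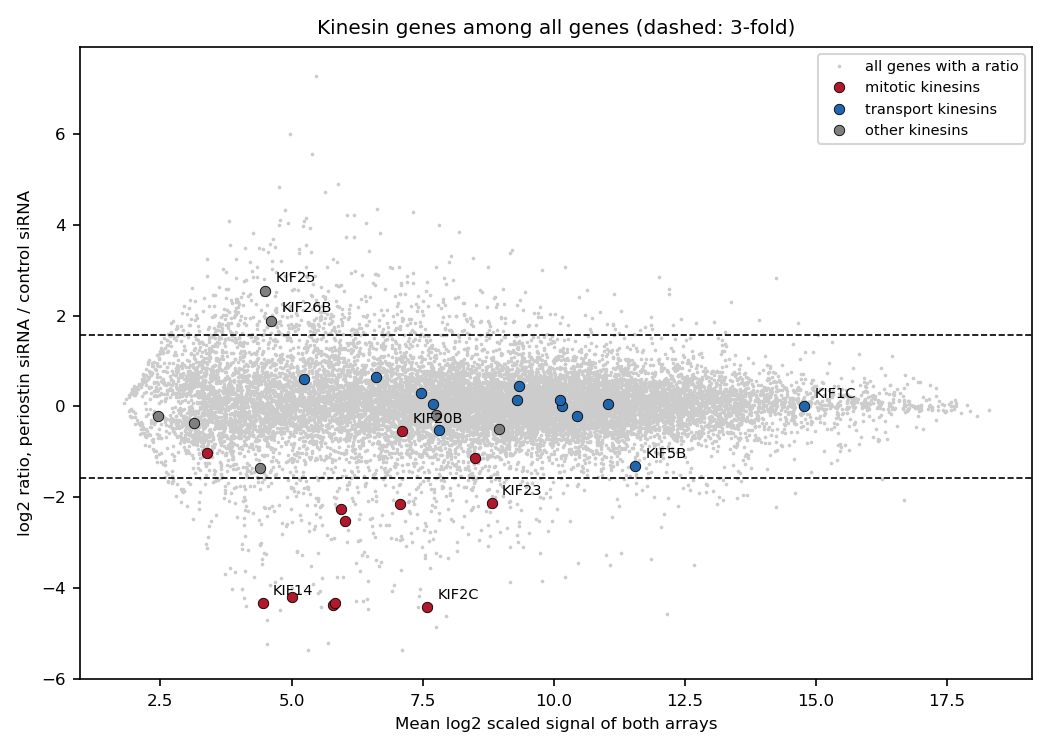
Log2 ratio of each of the 16052 genes with a ratio against its mean log2 scaled signal over both arrays, with kinesins in colour and dashed lines at 3-fold. Of the mitotic kinesins (red), 9 lie under the lower dashed line, and all 13 transport kinesins (blue) lie between the dashed lines. Genes with a bound are drawn at their bound.

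Transport kinesins were spread around equal signal, and 0 of the 13 with a ratio was past 3-fold in either direction. With 2.75% of all genes lower and 3.37% higher by that much, a count of 0 in a list of this size is near the background. KIF5B, the ubiquitous heavy chain of conventional kinesin, stood apart from the rest of them. It had a signal of 4739 with control siRNA and 1900 with periostin siRNA. The log2 ratio was -1.32 ± 0.20, or 2.49-fold lower. Its second probe gave -1.28 from 482 and 198, so both probes showed the same difference within the spot error. Its neuronal relatives KIF5A and KIF5C were at background on both arrays, at 1.98 and 1.94 for KIF5A and 7.28 and 2.03 for KIF5C. KIF5B was thus the only conventional kinesin heavy chain with a measured level here.

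The kinesin-2 motors, which drive intraflagellar transport in cilia and carry vesicles, had log2 ratios between 0.00 and 0.46 on their brightest probes. KIF3A, a subunit of the heterotrimeric motor, had 1138 and 1139, a log2 ratio of 0.00 ± 0.20. Its partner KIF3B had 2066 and 2149, a log2 ratio of 0.06. KIF3C, the alternative partner of KIF3A, had 553 and 761 on its brightest probe, a log2 ratio of 0.46, but a second probe gave -0.37 from 143 and 111. The 2 probes of KIF3C disagreed in direction, so none is claimed for the gene. Its brightest probe stands for it in the counts, medians and figures. KIF17, a homodimeric motor, had 160 and 198, a log2 ratio of 0.31 ± 0.21.

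The kinesin-3 motors, which move synaptic vesicle precursors, endosomes and other vesicles, differed by probe in the case of KIF1B. The brightest KIF1B probe, matched to the transcript of the short alpha isoform known to bind mitochondria, had 1507 and 1298, a log2 ratio of -0.22. Other probes of that transcript gave -0.12 and 0.16. The probe matched to the beta transcript, whose motor carries synaptic vesicle precursors, had 473 and 950, a log2 ratio of 1.01 ± 0.20. The alpha and beta probes of KIF1B thus differed by more than their spot errors. KIF1C, which carries integrin-bearing vesicles to the rear of migrating cells, was equal on both arrays at 28204 and 28255. KIF13A, which moves endosomal cargo, was higher at 78.7 and 123, a log2 ratio of 0.64 ± 0.21. KIF13B had 1065 and 1172, with log2 ratios of 0.14 on both of its probes. KIF16B, a motor of early endosomes, had 602 and 669, a log2 ratio of 0.15 against -0.21 on its second probe. KIF1A, the neuronal member, was at background at 2.41 and 1.62.

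The remaining transport motors showed small differences or were at background. KIF21B, a motor that also restrains microtubule growth, had 30.6 and 46.8, a log2 ratio of 0.61 ± 0.22, and its second probe was at background on both arrays. KIF21A was at background in all 10 of its spots on each array, with means of 1.77 and 1.82. KIFC2 had 204 and 211, a log2 ratio of 0.05, and KIFC3, a minus-end directed motor also known at cell junctions, had 272 and 188, a log2 ratio of -0.53 ± 0.20. Of the mitotic kinesins, the 9 past 3-fold all lay below KIF5B, the lowest of the transport kinesins. KIF22 and KIF20B lay between KIF5B and KIFC3. The bound of KIF18B lay there too, but its ratio may be lower than its bound.

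The kinesins in neither list act in cilia, in Hedgehog signalling, as signalling scaffolds or in mixed roles. KIF25 had a signal of 9.26 with control siRNA, just above the lowest signal flagged above background on that array (7.55), and 54.5 with periostin siRNA. Its log2 ratio was 2.56 ± 0.34, or 5.89-fold higher. KIF26B, an atypical kinesin tied to cell adhesion and WNT5A signalling, had 12.6 and 46.9, a log2 ratio of 1.89 ± 0.29 or 3.71-fold higher. Both higher kinesins were dim on the control siRNA array, and with normexp their log2 ratios were 0.78 and 0.53, so that 0 kinesins were higher by more than 3-fold. KIF24, which binds the centriolar cap protein CP110 and restrains cilium assembly, had 33.8 and 13.2, a log2 ratio of -1.36 ± 0.29 that was -0.31 with normexp. KIF2A, a depolymerase at spindle poles and in neurons, had 587 and 417, a log2 ratio of -0.49 ± 0.20. KIF7, a cilium-tip regulator of Hedgehog signalling, had 231 and 203, a log2 ratio of -0.18. KIF26A (9.97 and 7.69) and KIF27 (8.95 and 3.34) were not well above background on the periostin siRNA array, which bounds them at 1.28-fold and 1.15-fold lower at the least. KIF6, KIF9, KIF12 and KIF19, motors of ciliated or epithelial cells in the main, were at background on both arrays with signals between 1.63 and 6.57.

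The genes that work with mitotic kinesins were lower as well, though not all of them. Of 12 such partners, 6 were lower by more than 3-fold (2.75% of all genes) and 0 higher (3.37% of all genes), and the median log2 ratio of the list was -1.61. HMMR, which organises spindle poles, had 790 and 37.0, the lowest ratio of the list at -4.42. GTSE1, which inhibits KIF2C at the spindle, had 191 and 11.4, a log2 ratio of -4.07. PRC1, the bundler of central spindle microtubules that KIF4A carries to their ends, had 2186 and 149, a log2 ratio of -3.87. CENPE, a kinesin-7 motor of kinetochores whose symbol is outside the KIF naming, had 353 and 46.4 over 10 spots, a log2 ratio of -2.93 ± 0.14. RACGAP1, which forms centralspindlin with KIF23, had 411 and 138, a log2 ratio of -1.58, just short of 3-fold. TPX2, which targets KIF11 to spindle microtubules, had -1.64, and NUSAP1, a microtubule bundler near chromosomes, had -2.93. CIT, the kinase placed by KIF14, had -0.30. CKAP5 and NUMA1, spindle proteins with roles outside mitosis or in the interphase nucleus, had log2 ratios of 0.15 and 0.61, the highest of the list.

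Light chains, accessory subunits and adaptors of transport kinesins followed no single direction. Of 22 such genes 20 had a ratio, 0 were past 3-fold (2.75% of all genes lower, 3.37% higher), a count near the background, and their median log2 ratio was 0.04. KLC1 and KLC2, the light chains that pair with KIF5B, had log2 ratios of 0.07 and -0.23 beside -1.32 for the heavy chain, and KLC4 had 0.88 at low signals of 23.2 and 42.8. TRAK2 and TRAK1, the adaptors that link KIF5B to mitochondria, differed from each other, with 1088 and 428 for TRAK2 (-1.34, the lowest of the list) and 634 and 1148 for TRAK1 (0.86). Their mitochondrial anchors RHOT1 and RHOT2 had 0.41 and 0.48. MAPK8IP3, a scaffold that links KIF5B and dynein to cargo, had 3006 and 6689, the highest ratio of the list at 1.15. KIFAP3, the accessory subunit of KIF3A and KIF3B, had -0.14, and KIFBP, which holds several kinesins off microtubules, had -0.64. Cytoplasmic dynein and dynactin, the oppositely directed transport motor and its cofactor, had 0 of 15 measured genes past 3-fold, again near the background of 2.75% and 3.37%, and a median log2 ratio of 0.11, from -0.71 for DYNLT1 to 0.75 for DCTN1.

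**Figure D5:**
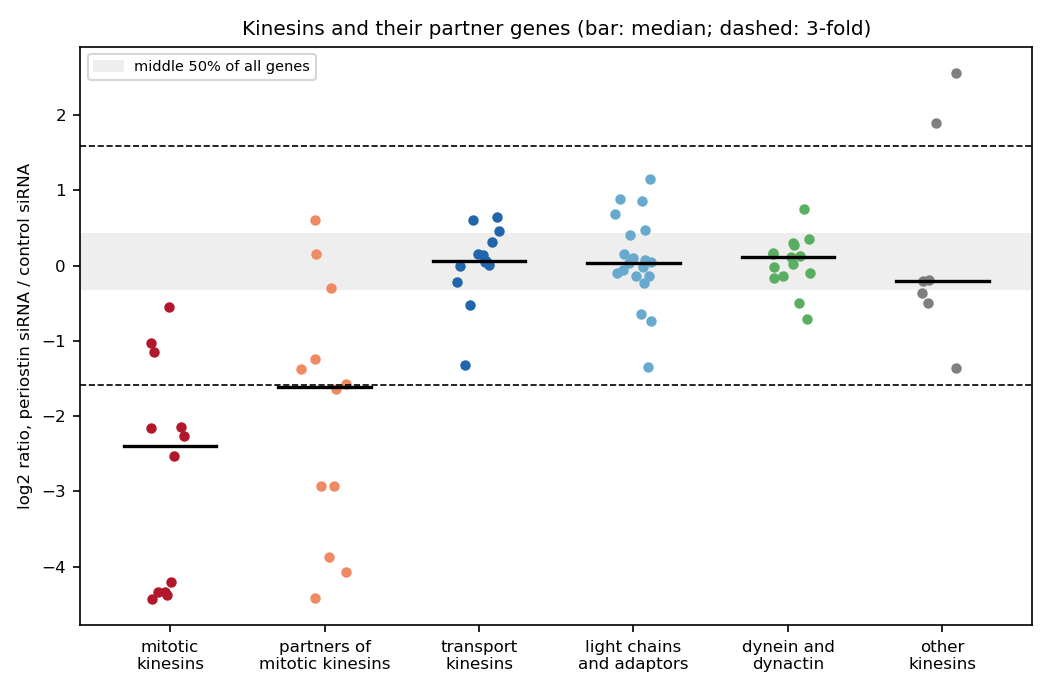
Log2 ratio of each gene with a ratio or bound (points) by list, with the list's median as a bar, dashed lines at 3-fold and the middle 50% of all genes in grey. The mitotic kinesins and their partners have medians of -2.40 and -1.61, and the transport kinesins, their adaptors and dynein have medians of 0.06, 0.04 and 0.11.

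Markers of dividing cells moved with the mitotic kinesins, and 4 of 5 were lower by more than 3-fold, against 2.75% of all genes. CDK1 had a log2 ratio of -4.30, TOP2A -4.24, CCNB1 -2.98 and MKI67 -2.03, while PCNA had 0.42. In bulk RNA, fewer cells that express a gene and less of its RNA per cell cannot be told apart, and the part of the share of dividing cells in the kinesin ratios was not tested.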

How the data were processed

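Values were taken from 2 single-colour Agilent scanner files, 1 per condition. The deposited processed signal is an intensity from which the authors' scanner software had subtracted background. The file headers name Agilent Feature Extraction 11.5.1.1, the submitters' processing notes 12.0.3.1, and array coordinates (build hg19) were not used. A deposited table of normalized intensity values was those signals times 1 factor per array, and was used as an alternative.

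From each log2 signal the array's 75th percentile over 58717 non-control spots was subtracted. Spots of a probe were averaged, and the brightest probe stood for a gene. A probe was above background if flagged so in at least 50% of its spots. A gene above background on 1 array was bounded by the dim array's lowest signal flagged above background or the dim probe's own, whichever was higher, and a gene on neither had no ratio. RefSeq (GRCh38.p14) named 65.1% of spots. Over 667 probes with replicate spots the pooled SD of the log2 ratio was 0.12, and 0.19 over the 219 dimmest (mean signal under 300), which limits precision. With 1 array per condition, no p-value is given. Members and lists were chosen with earlier results of these data known, and every member is named. Scaling, ratios and calls were tested on simulated data. Its changed genes were all above the 75th percentile, so bounds and changes in dim genes were not tested. The software was Python 3.11.15, pandas 2.3.3, R 4.3.3 and limma 3.58.1. Alternatives were normexp (offset 50, median spot brightness), quantile, loess (span 0.3), median or no scaling, the authors' table, other probe and spot rules, and 2-fold and 4-fold thresholds. Protein sequences were not used here.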

Additional observations from a re-analysis of the deposited data

How the results depend on the processing

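No paired analysis was possible because only 1 array was made per siRNA, and no array could be left out for the same reason. Normexp moved the most values. It gave a log2 ratio of -2.99 for POSTN, a median of -1.52 for the mitotic kinesins and -1.41 for their partners, 0 kinesins higher by more than 3-fold, and 190 genes lower and 143 higher, so that 42.9% of the genes past 3-fold were higher against 55.1%. It moved 15 of the 32 kinesin values by more than their spot error. Under median scaling the centre of all genes moved by -0.13, with medians of -2.53 for mitotic, -0.072 for transport and -0.33 for other kinesins, -1.74 for mitotic partners, -0.092 for transport partners and -0.017 for dynein and dynactin, and 4 kinesins near equal signal changed sign. The mitotic median was -2.27 with genes above background on both arrays and -2.21 with KIF2A and KIF24 counted as mitotic. At 2-fold 1031 genes were lower and 1279 higher, and at 4-fold 274 were lower and 278 higher, with 1 kinesin higher. The cause of these shifts was not tested. Between 6 and 13 kinesins were lower over all settings and thresholds. Averaging the probes of a gene moved 4 kinesin values. Quantile and loess scaling moved 0 kinesin values by more than the spot error. No scaling and scaling on spots above background shift every ratio by 1 constant, 0.04 and 0.002 in log2. Those constants, and the -0.13 of median scaling, are smaller than the spot error of every kinesin with a ratio (0.20 or more). These 3 settings therefore could not move a kinesin value by that measure. The authors' table and leaving out spots flagged as outliers do not test the kinesin values either. That table holds the same signals times 1 factor per array, which the scaling removes, and no kinesin spot had an outlier flag. Among kinesins with a ratio, median spots could change only KIF20A, the only such gene with replicate spots. Its log2 ratio was -4.29 with median spots and -4.38 ± 0.34 without. Signals near background limit KIF14, KIFC1, KIF20A, KIF4A, KIF18B, KIF24, KIF25, KIF26A, KIF26B and KIF27. KIF20A and KIF4A read 12.2 and 12.6 with periostin siRNA, and normexp gave them log2 ratios of -2.10 and -2.08.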
